A study of Homo sapiens with 4 samples.

Results

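The ABC transporter genes are the human genes whose symbols begin with ABC followed by a subfamily letter from A to G and a number. Chosen by that symbol rule alone, they came to 46 of the 17217 genes named on the array. Of these, 45 encode single ABC proteins and 1 is ABCF2-H2BK1, a locus annotated as a readthrough of ABCF2 and its neighbour. All 46 protein-coding genes that the rule found in the RefSeq gene table were on the array, while the 22 other loci it found there, such as pseudogenes, were not. The array carried 51 RefSeq targets for them, 1 for each of 41 genes and 2 for each of ABCB4, ABCB9, ABCC5, ABCC9 and ABCD4, with 3 probes per target.

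The study profiled mRNA in cell lines used for receptor research, and the HEK293 samples are described here. HEK293 is an immortalised human line of embryonic kidney origin that carries adenoviral sequence. The samples form 1 group of 4 biological replicates of unmodified and untreated cells, grown in DMEM with 10% serum, each extracted as total RNA, copied from an oligo(dT) primer, labelled with Cy3 and hybridised to its own single-colour array. There is no treated or second group, so each gene was set against a baseline measured on the same array. A gene's level was the log2 signal of its targets, the baseline was the mean plus 2 SD of control genes of the male reproductive tract, and the distance of a gene was its level minus the baseline in log2 units. A gene was counted as detected when its mean distance over the 4 arrays was above 0. Since each probe binds its target with its own strength, distances of different genes do not rank their mRNA amounts.

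ABC proteins share a pair of nucleotide-binding domains that hydrolyse ATP, and in most members these drive the movement of a substrate across a membrane. Subfamilies A and G chiefly handle lipids and sterols, B and C include the drug and organic anion pumps, and D members serve peroxisomes and lysosomes. Subfamilies E and F lack membrane domains and act on ribosomes. In epithelia such as the kidney tubule, the pumps of the B, C and G subfamilies export drugs and conjugated metabolites.

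HEK293 cells contained message above the baseline for the translation factors ABCE1, ABCF1, ABCF2 and ABCF3, the porphyrin transporter ABCB6, the peroxisomal importer ABCD3, and the efflux pumps ABCB1, ABCC1, ABCC4 and ABCC10. Message for ABCA1, ABCA4, ABCB11, ABCG5 and ABCG8 was below it on all 4 arrays. In all, 16 of 46 ABC genes (34.8%) were detected, against 52.7% of all named genes. The genes above the baseline on all 4 arrays were 12 ABC genes (26.1%) against 45.0% of named genes, and those below it on all 4 were 26 (56.5%) against 39.8%. By limma's one-sided moderated test of the distance against 0, with Benjamini-Hochberg adjustment over all named genes, 13 ABC genes passed (28.3%) against 45.9%, namely those 12 and ABCD4. The median distance of the ABC genes was -1.41, with quartiles at -3.23 and 1.21, and the median over all named genes was 0.26. In a bulk culture, fewer cells expressing a gene and less RNA of it per cell cannot be told apart.

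**Figure D1:**
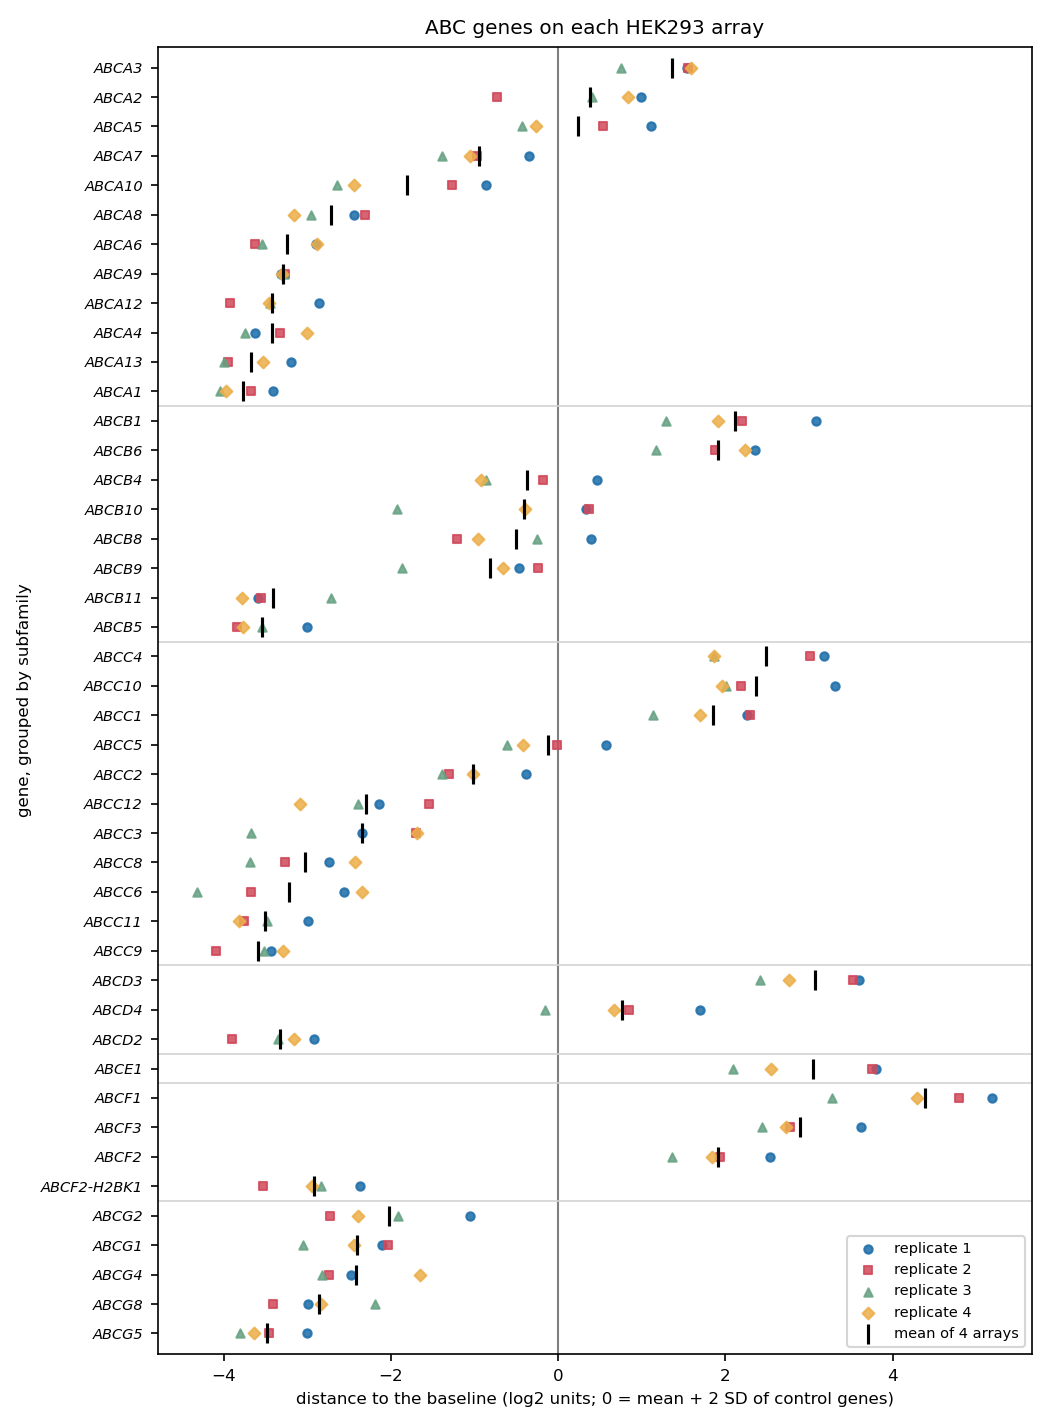
Distance to the baseline in log2 units (x axis) of 44 of the ABC genes (y axis, grouped by subfamily A to G), with 1 point per replicate array and a black bar at the mean of the 4 arrays. The 11 genes shown with every point right of 0 include ABCE1, 3 of the 4 ABCF genes, 2 ABCB genes and 3 ABCC genes, and all 5 ABCG genes lie left of 0 on every array.

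The 4 arrays ordered the ABC genes alike, with correlations across the 46 genes of 0.951 to 0.977 between pairs of arrays. Their baselines were 9.47, 9.94, 10.69 and 10.32 on replicates 1 to 4, so a gene with a fixed level had its largest distance on replicate 1 and its smallest on replicate 3. The median distance of the ABC genes moved with it, from -0.67 on replicate 1 to -1.92 on replicate 3. The arrays also fall into pairs that share a distribution of values. From replicates 1 and 2 alone 19 ABC genes were detected, and from replicates 3 and 4 alone 15. The shares of all named genes for these pairs are not given here. Across all named genes, correlations paired the arrays otherwise, at 0.971 for replicates 1 and 3 and 0.977 for replicates 2 and 4. The remaining pairs were between 0.949 and 0.959, and the reason was not tested. The median SD of an ABC gene over the arrays was 0.41 in level and 0.53 in distance. Because the baseline moves every gene together, the tests of different genes are not independent. Among marker genes, 7 of 8 expected in this line were detected. VIM, KRT8, KRT18, CDH2, NEFL and INA were above 0 on all arrays and NEFM on replicates 1 and 3 only. PAX2 was not detected. Against these stood 1 of 6 of proximal tubule (LRP2), 0 of 5 of hepatocytes, 0 of 5 of leukocytes and 1 of 3 of macrophages (CD68).

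The baseline rests on 10 matched control genes. Of these, AFG2A, a ribosome maturation ATPase with a mean level of 9.97, and SPATA13 at 9.72 stood above the other 8. Those 8 had means between 6.53 and 7.25. On every array, 11 ABC genes had levels below the highest of the 8, so genes below the baseline were not all at the level of these controls. Without AFG2A and SPATA13, the baseline fell from a mean of 10.10 to 7.78 and 26 ABC genes were detected. A lower baseline raises the distance of every named gene. The share of all named genes detected there is not given, so the rise cannot be read as particular to ABC genes. The 12 ABC genes above the baseline on all 4 arrays had a mean distance above 0 in each of 16 settings tried. For those 12 genes, this outcome was fixed in advance wherever arrays were left out or the baseline was lowered. At 3 SD, ABCA3 was at 0.041, and ABCA3, ABCB1, ABCB6, ABCC1 and ABCF2 no longer passed limma's test. Of the others, 20 genes had no mean above 0 in any setting, and the remaining 14 changed side.

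**Figure D2:**
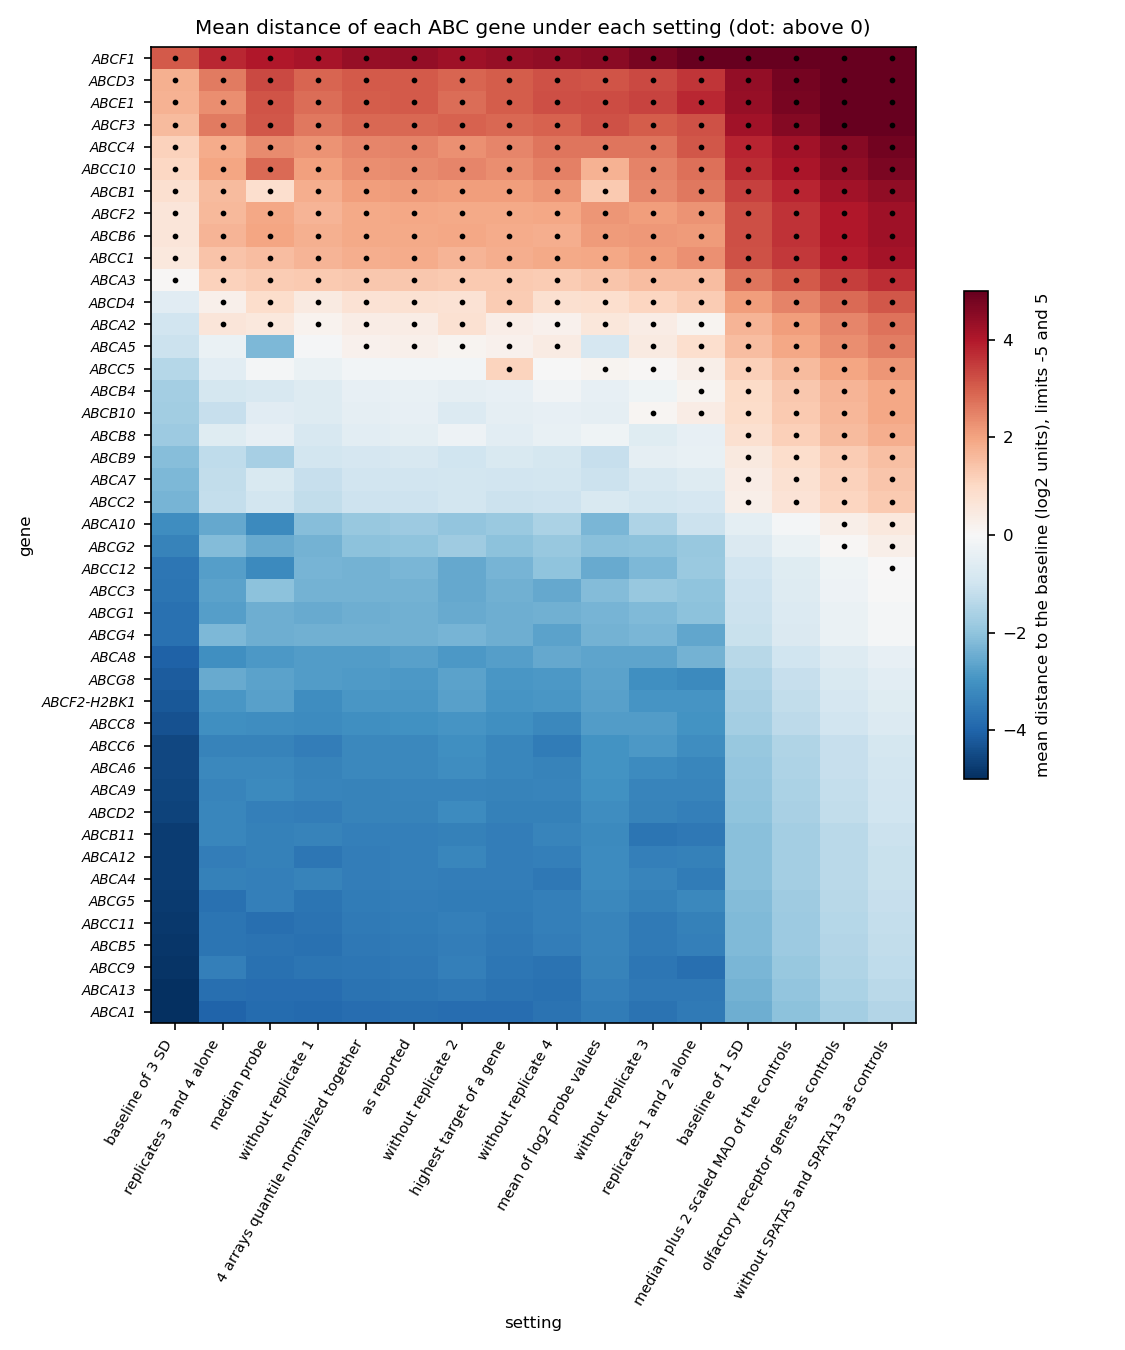
Mean distance to the baseline in log2 units (colour, cut at -5 and 5) of 44 ABC genes (y axis) under each of 16 settings (x axis), with a dot where it was above 0. Dots run across every column for 11 genes and are missing from every column for 20 genes.

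The sequence at gene starts was set beside these distances, since many widely used genes begin in stretches rich in the dinucleotide CpG. RefSeq start windows of 300 bases on GRCh38.p14, from 250 bases before to 50 after the start, were found for 36 of the 46 genes. The others included ABCA4, ABCA8, ABCB4, ABCB5, ABCC1, ABCC3, ABCC8 and ABCG1. The windows of ABCF1 and ABCD3, both above the baseline on all arrays, and of ABCA13 and ABCA1, both below it on all arrays, are shown 5′ to 3′ over the 250 bases before the start, with each CpG in capitals.
ABCF1, chr6:30571192-30571441, plus strand: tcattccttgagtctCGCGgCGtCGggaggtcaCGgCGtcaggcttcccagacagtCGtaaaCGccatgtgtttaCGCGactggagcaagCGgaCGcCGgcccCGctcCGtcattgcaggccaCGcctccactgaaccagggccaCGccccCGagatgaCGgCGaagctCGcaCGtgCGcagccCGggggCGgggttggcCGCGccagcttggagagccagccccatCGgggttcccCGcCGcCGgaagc
ABCD3, chr1:94418139-94418388, plus strand: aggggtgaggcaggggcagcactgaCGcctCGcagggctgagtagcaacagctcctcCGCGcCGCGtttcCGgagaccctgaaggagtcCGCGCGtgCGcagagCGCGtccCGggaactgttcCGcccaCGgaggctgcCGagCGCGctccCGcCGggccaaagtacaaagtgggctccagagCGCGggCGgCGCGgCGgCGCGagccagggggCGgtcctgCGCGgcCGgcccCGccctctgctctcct
ABCA13, chr7:48171208-48171457, plus strand: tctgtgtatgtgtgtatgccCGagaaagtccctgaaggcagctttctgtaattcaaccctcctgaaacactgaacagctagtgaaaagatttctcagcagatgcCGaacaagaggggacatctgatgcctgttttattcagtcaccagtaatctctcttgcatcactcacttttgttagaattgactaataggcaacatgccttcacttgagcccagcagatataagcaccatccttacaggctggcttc
ABCA1, chr9:104928156-104928405, minus strand: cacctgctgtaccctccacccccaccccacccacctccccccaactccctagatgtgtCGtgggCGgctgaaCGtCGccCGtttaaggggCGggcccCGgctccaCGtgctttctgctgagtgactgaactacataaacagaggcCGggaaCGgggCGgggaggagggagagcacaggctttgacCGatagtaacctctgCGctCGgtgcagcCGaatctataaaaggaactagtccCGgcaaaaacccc
The printed window held 31 CpG in ABCF1 and 34 in ABCD3, whereas ABCA13 held 2 and ABCA1 held 16. ABCA1 thus had a CpG-containing start and a mean distance of -3.77.

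Over the 36 genes, the ratio of observed to expected CpG had a median of 0.992 in the 13 detected genes and 0.501 in the 23 others. In all named genes with a window, the medians were 0.852 over 7588 detected genes and 0.475 over 6219 others. None of the 14 ABC genes with a ratio of 0.6 or less was detected, against 23.48% of 4633 named genes with such a ratio, and 13 of 22 above 0.6 were detected (59.09%), against 70.85% of 9174. Under the lower baselines, 3 to 5 of the 14 became detected, namely ABCB8, ABCB9 and ABCC2 under each, ABCA10 under 2 of them and ABCC12 under 1. A lower baseline raises every named gene, and the shares of named genes with such a ratio detected there are not given here. Across the 36 genes, which share arrays and baselines, Pearson's r of the ratio with the mean distance was 0.642 and Spearman's rho 0.640, beside 0.514 and 0.487 across 13807 named genes. There were 9 ABC genes with a ratio above 0.6 that were not detected, among them ABCC9 at 0.976 and ABCG2 at 0.902. ABCF2 and ABCF2-H2BK1 share 1 window and had opposite calls.

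**Figure D3:**
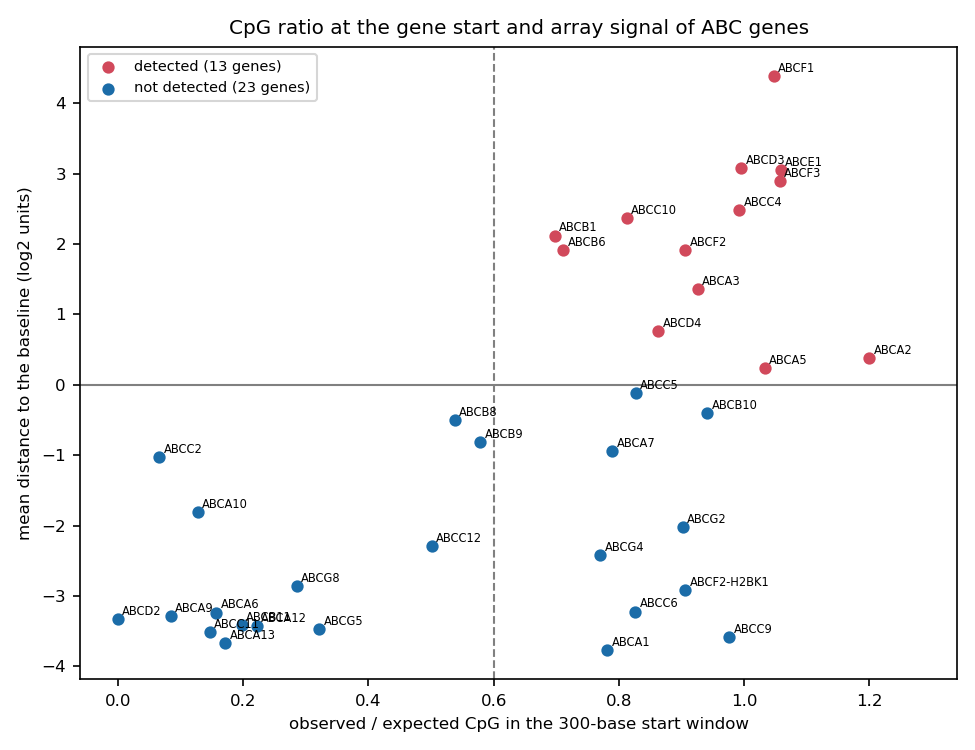
Observed over expected CpG in the 300-base start window (x axis, a ratio) against the mean distance to the baseline in log2 units (y axis) of 36 ABC genes, in red where detected and in blue where not. All 13 detected genes lie right of the dashed line at 0.6, as do 9 of the 23 others.

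A search of both strands for 4 letter patterns gave TGACNNNGC, where N is any base, in the windows of 7 of 13 detected ABC genes and 0 of 23 others. The pattern was in 13.49% of all 27305 windows of the RefSeq table, in 15.35% of detected and 12.86% of other named genes. The 7 genes were ABCA3, ABCA5, ABCB6, ABCC4, ABCC10, ABCD4 and ABCF1. The matches of the 4 of them with the largest mean distance are shown in 25 bases, 5′ to 3′ on the strand of the match, with the matching letters in capitals.
ABCF1, chr6:30571288-30571312, minus strand: gcctgcaaTGACGGAGCggggccgg
ABCC10, chr6:43427390-43427414, plus strand: gttataaaTGACGTTGCactaaggg
ABCC4, chr13:95301584-95301608, plus strand: ccgacgggTGACGCGGCgggaggag
ABCB6, chr2:219219094-219219118, minus strand: tgggcacgTGACCAAGCcggctctg
These matches began 143 to 152 bases before the gene start. That of ABCD4 began 168 and that of ABCA3 197 bases before it, and that of ABCA5 lay 10 bases after it. With the baseline at 3 SD, 5 of the 7 genes were detected. With mean log2 probes, with the median probe, without replicate 1 and from replicates 3 and 4 alone, 6 of the 7 were. Of the other patterns, GGGCGG was found in 9 of 13 detected and 9 of 23 other ABC genes (43.83% of all windows, with 70.49% of detected and 44.73% of other named genes). CCAAT was in 3 and 7 (35.56%, with 37.32% and 35.01%) and TATAAA in 1 and 6 (12.14%, with 5.48% and 14.5%). GGGCGG and TGACNNNGC can overlap by their shared letters. These are matches of letters, and binding of a factor was not measured. The patterns were chosen with earlier results of these data known, and the split between detected and other ABC genes was not tested.

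Among the translation factors, 4 genes were above the baseline on all arrays. ABCF1, which binds ribosomes and the initiation factor eIF2, had distances of 5.19, 4.80, 3.28 and 4.29 on replicates 1 to 4. Its distance was highest on replicate 1, lowest on replicate 3 and well clear of 0 on each, with a mean of 4.39 ± 0.83 (SD, n = 4). Its level was highest on replicate 2, at 14.73. ABCE1, the ATPase that splits ribosomes after termination, had 3.80, 3.75, 2.09 and 2.55, or 3.05 ± 0.86 (SD, n = 4). Replicates 1 and 2 were the higher pair, and 1 of its 3 probes was near the baseline on replicate 3, at -0.02. ABCF3, a soluble protein of the same family, had 3.62, 2.77, 2.44 and 2.73, or 2.89 ± 0.51 (SD, n = 4). Its distances on replicates 2 to 4 lay close together, below that of replicate 1. Its level, before the baseline was subtracted, was instead lowest on replicate 2, at 12.70, and highest on replicate 3, at 13.13.

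ABCF2, another soluble member, had distances of 2.53, 1.93, 1.37 and 1.84, or 1.92 ± 0.48 (SD, n = 4), and all 3 of its probes had a mean above the baseline. The readthrough locus ABCF2-H2BK1, measured by its own target, had -2.36, -3.53, -2.84 and -2.95, or -2.92 ± 0.48 (SD, n = 4). All 3 of its probes had means below the baseline. The readthrough is read from RefSeq target NM_005692 alone, probe sequences were not analysed here, and the distances of the pair do not rank their mRNA amounts. Of 13 genes of ribosome recycling and initiation, 12 were detected and 12 passed limma's test, with a median distance of 3.16. They included GSPT1, a release factor, at 5.18, EIF2S1, a subunit of eIF2, at 2.81 and PELO, a rescue factor that works with ABCE1, at 1.62. HBS1L, the partner of PELO, was at -1.01 ± 1.54 (SD, n = 4), above the baseline on 1 array.

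Of the mitochondrial and porphyrin transporters, ABCB6 had distances of 2.35, 1.87, 1.17 and 2.23, or 1.91 ± 0.53 (SD, n = 4). It was above 0 on every array, with replicate 3 the lowest in distance, while its level was lowest on replicate 2, at 11.81. ABCB10, an inner-membrane protein of erythroid heme synthesis, had 0.33, 0.37, -1.93 and -0.40, or -0.40 ± 1.08 (SD, n = 4). It was above the baseline on replicates 1 and 2 only, and without replicate 3 its mean was 0.10. The reference holds 3 pseudogenes of ABCB10, 2 each of ABCC6, ABCE1 and ABCF2, and 1 of ABCA3, and whether their transcripts bound the probes was not tested. ABCB8, also mitochondrial, had 0.39, -1.21, -0.25 and -0.96 with a mean of -0.51, so that only replicate 1 was above. Of 20 genes of mitochondrial iron-sulfur and heme synthesis, 17 were detected and 15 passed limma's test, with a median of 1.93. HSPA9, the chaperone of cluster assembly, was at 5.25 and ALAS1, the first heme enzyme of most cells, at 4.64, while its erythroid counterpart ALAS2 was at -2.77.

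The ABCD genes differed. ABCD3, which imports branched fatty acids and bile acid precursors into peroxisomes, had distances of 3.60, 3.53, 2.41 and 2.76, or 3.08 ± 0.58 (SD, n = 4). All 4 distances were above 0, with replicates 1 and 2 the higher, while the level of ABCD3 was lowest on replicate 1, at 13.07. ABCD2, a peroxisomal importer of very-long-chain fatty acids, was at -3.33 and below the baseline on all arrays. ABCD4, a lysosomal protein of cobalamin export, had 1.70, 0.85, -0.16 and 0.67, or 0.76 ± 0.76 (SD, n = 4). It passed limma's test at an adjusted p of 0.0326, but without replicate 1 its mean was 0.45, and it did not pass without replicate 1, 2 or 4. It also did not pass with limma's trend and robust prior (adjusted p = 0.0597) or on replicates 3 and 4 alone, where its distance was 0.26 (adjusted p = 0.516 by limma). Of 16 peroxisome genes, 16 were detected and 14 passed, with a median of 1.58, though 10 were detected with the baseline at 3 SD. They included PEX5, the import receptor, at 3.81.

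Of the efflux pumps, 4 were above the baseline on all arrays. ABCB1, or P-glycoprotein, a pump of many drugs, had distances of 3.08, 2.20, 1.29 and 1.91, or 2.12 ± 0.74 (SD, n = 4). Every array was above 0, but its 3 probes had means of 3.40, 0.43 and -0.86, so the gene's value rested mainly on 1 probe, and its distance was 0.85 with the median probe (adjusted p = 0.0342 by limma) and 1.32 with mean log2 probes. ABCC4, a pump of cyclic nucleotides and prostaglandins, had 3.18, 3.02, 1.87 and 1.87, or 2.48 ± 0.71 (SD, n = 4). Replicates 1 and 2 were the higher pair.

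ABCC10, a pump of taxanes and estrogen glucuronide, had 3.31, 2.19, 2.01 and 1.96, or 2.37 ± 0.63 (SD, n = 4). Replicate 1 stood above the other 3 in distance, while the level of ABCC10 was 12.78 there and 12.70 on replicate 3. Of its probes, 2 had means of 3.06 and 2.72 and 1 a mean of -1.56. ABCC1, which exports glutathione conjugates and leukotriene C4, had 2.26, 2.30, 1.13 and 1.70, or 1.85 ± 0.55 (SD, n = 4), with all 3 probe means above 0. Its neighbour on chromosome 16, ABCC6, which mediates ATP release from liver cells, was at -3.22.

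ABCC5, a cyclic nucleotide pump, was split between its targets. Target NM_001023587 had distances of 1.91, 1.40, 0.73 and 0.58, or 1.16 ± 0.62 (SD, n = 4), and target NM_005688 had -0.77, -1.43, -1.95 and -1.41, or -1.39 ± 0.48 (SD, n = 4). The first was above the baseline on 4 arrays and the latter on none. Averaged over both, the gene had 0.57, -0.02, -0.61 and -0.42, or -0.12 ± 0.52 (SD, n = 4), and was counted as not detected. For ABCD4, target NM_005050 was at 1.32 ± 0.73 (SD, n = 4), above on 4 arrays, and NM_020325 at 0.21 ± 0.83 (SD, n = 4), above on 3. The targets of ABCB4, ABCB9 and ABCC9 lay on 1 side each, at -0.38 and -0.37, -0.73 and -0.90, and -3.56 and -3.61.

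**Figure D4:**
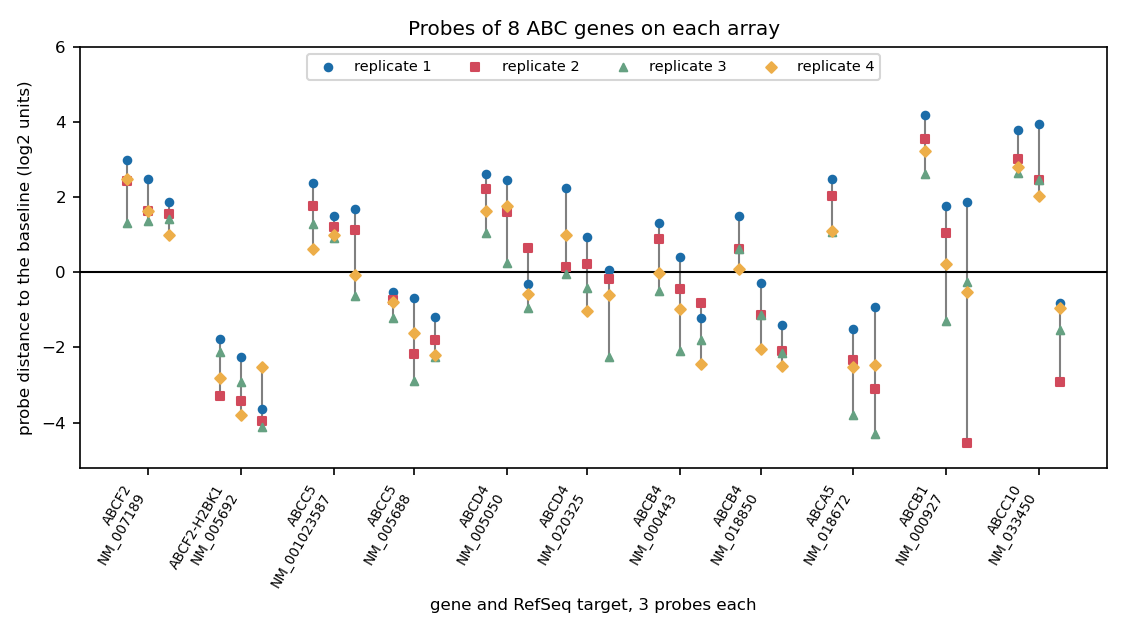
Distance to the baseline in log2 units (y axis) of each of the 3 probes of 11 RefSeq targets of 8 ABC genes (x axis), with 1 point per replicate array joined by a line. The 3 probes of ABCF2 lie above 0 and those of ABCF2-H2BK1 below it, the means of the ABCC5 targets lie on either side, and the probes of ABCA5, ABCB1 and ABCC10 disagree.

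The other pumps had no mean above the baseline. ABCG2, the breast cancer resistance protein and a stem cell marker, had distances of -1.06, -2.73, -1.91 and -2.40, or -2.02 ± 0.73 (SD, n = 4). It was above 0 under 2 of the settings that lowered the baseline, at 0.061 and 0.30. ABCC2 and ABCC3, apical and basolateral pumps of conjugated anions, were at -1.02 and -2.35, and ABCC11 and ABCC12, neighbours on chromosome 16, at -3.51 and -2.29. ABCB5, a marker of limbal stem cells, was at -3.54 and ABCB9, a lysosomal peptide transporter, at -0.81. All were below the baseline on all 4 arrays.

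Genes that act with these pumps were mixed. Of 6 genes listed as xenobiotic sensors and their partners, 4 were detected and 3 passed limma's test, with a median of 1.28. The 3 were NFE2L2, the regulator of antioxidant genes, at 3.09, ARNT at 2.36 and KEAP1 at 2.06. AHR was at 0.50 (adjusted p = 0.165 by limma). The pregnane receptor NR1I2 was at -3.33 and NR1I3 at -2.39, both below the baseline on all arrays. Of 10 glutathione genes, 7 were detected and 6 passed, with a median of 2.17, GSTP1 being at 4.13 and GSTA1 at -3.60. Of 16 solute carrier (SLC) transporters of drugs and bile acids, 3 were detected and 3 passed, with a median of -3.26. These 3 were SLCO3A1 at 2.15, SLC47A1 at 1.65 and SLCO4A1 at 1.07. Without AFG2A and SPATA13 as controls, 5 of the 16 were detected.

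Among the members known from bile and from potassium channels, ABCB4, which exports phosphatidylcholine into bile, had distances of 0.46, -0.18, -0.86 and -0.93 with a mean of -0.38. It was above the baseline on replicate 1 only, and its mean was above 0 in 5 of the 16 settings, the 4 with a lower baseline and replicates 1 and 2 alone. It lies beside ABCB1 on chromosome 7, which was above on every array. ABCB11, the bile salt export pump, was at -3.41. ABCC8 and ABCC9, the sulfonylurea receptors that regulate ATP-sensitive potassium channels, were at -3.03 and -3.58, and of 3 listed genes of their channel pores and partners 0 were detected. As all lay below 0, limma's one-sided test called 0 of them, also at an unadjusted p under 0.05, and KCNJ11, a pore subunit, was at -1.64. Of these, 2 were detected without AFG2A and SPATA13 or with olfactory receptor genes as controls, and 1 with the median and MAD of the controls. Outside the symbol rule, the peptide transporters TAP1 and TAP2 were at 3.13 ± 0.54 and 1.32 ± 0.46 (SD, n = 4), both above on 4 arrays, and the chloride channel CFTR was at -3.67 ± 0.31 (SD, n = 4).

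Of the 12 ABCA lipid transporters, 3 were detected and 1 was above the baseline on all arrays. ABCA3, which fills the lamellar bodies of lung with surfactant lipid, had distances of 1.54, 1.55, 0.75 and 1.58, or 1.36 ± 0.40 (SD, n = 4; adjusted p = 0.000144 by limma). Replicate 3 was the low one in distance, while the level of ABCA3 was lowest on replicate 1, at 11.01. ABCA2, an endolysosomal transporter abundant in oligodendrocytes, had 0.99, -0.73, 0.41 and 0.83, or 0.38 ± 0.78 (SD, n = 4; adjusted p = 0.290 by limma), with replicate 2 below the baseline.

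ABCA5 had 1.11, 0.54, -0.43 and -0.27, or 0.24 ± 0.72 (SD, n = 4; adjusted p = 0.497 by limma). It was above on replicates 1 and 2 and below on the others, and its probes had means of 1.67, -2.54 and -2.70. With the median probe in place of the mean its distance was -2.25. It is the last of 5 neighbouring genes on chromosome 17, and the other 4, ABCA8, ABCA9, ABCA6 and ABCA10, lay between -3.29 and -1.81 and were not detected.

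ABCA1, which loads cholesterol onto apolipoproteins, had -3.41, -3.67, -4.04 and -3.97, or -3.77 ± 0.29 (SD, n = 4), far below the baseline on each array. ABCA7, its nearest relative, was at -0.94, ABCA4 of the retina at -3.42, ABCA12 of keratinocytes at -3.42 and ABCA13 at -3.67. The ABCG genes were all below the baseline on all arrays. ABCG1 and ABCG4, which pass sterol to lipoproteins, were at -2.41 and -2.42, and ABCG5 and ABCG8, the sterol export pair that lies side by side on chromosome 2, at -3.48 and -2.86.

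Of 12 genes that act with the sterol exporters, 9 were detected on all arrays and 9 passed limma's test, with a median of 1.03, and 4 were detected with the baseline at 3 SD. NPC1, which moves cholesterol out of lysosomes, was at 4.11 and SREBF2, a regulator of cholesterol synthesis genes, at 3.27. NR1H2 and NR1H3, the sterol-sensing receptors that control ABCA1 and ABCG1, were at 0.81 and 0.90. APOA1, the acceptor of cholesterol from ABCA1, was at -3.21.

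**Figure D5:**
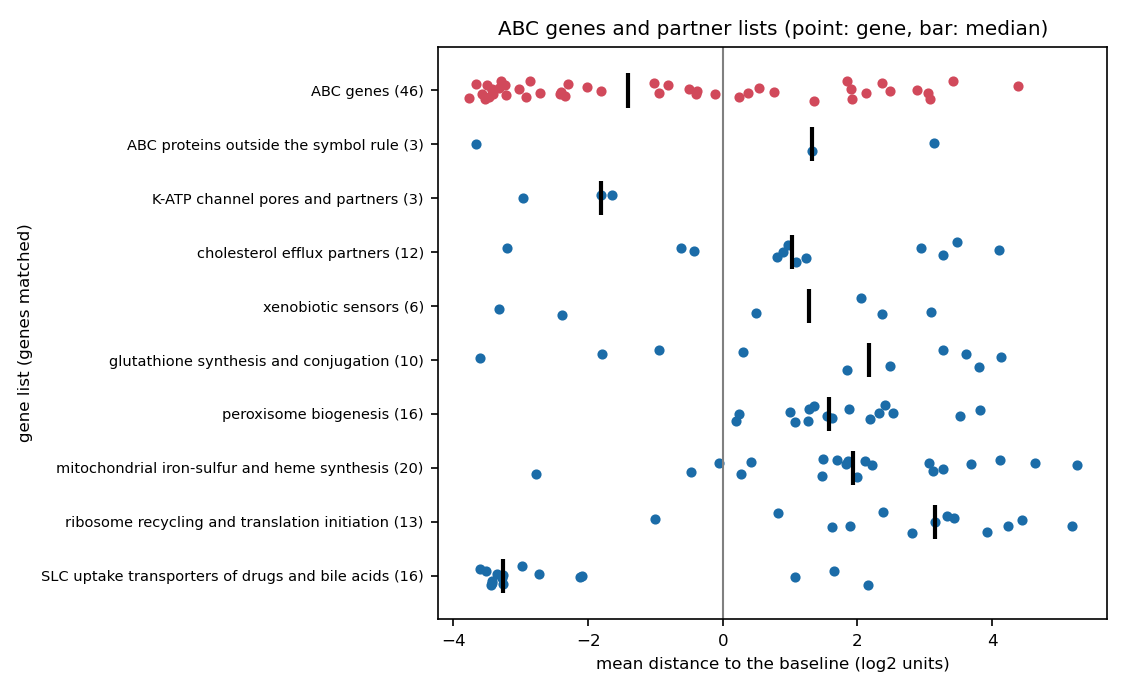
Mean distance to the baseline in log2 units (x axis) of the 46 ABC genes (red) and of the genes of 9 lists (blue), with 1 point per gene and a black bar at each median (y axis, list with its number of genes). ABC genes run from -3.77 to 4.39 around a median of -1.41. The lists have medians from -3.26 for SLC transporters of drugs and bile acids to 3.16 for ribosome recycling.

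Probe agreement was read for each ABC gene without a test. In 9 genes (19.6%) every probe had a mean above the baseline, against 34.1% of named genes, and in 27 (58.7%) no probe did, against 40.4%. Of the 30 genes not detected, 22 had a mean distance under -2, and of the 16 detected, 12 were above 1. The 12 genes between these bounds, 4 detected and 8 not, hold the 4 detected genes that were below the baseline on at least 1 array, among them ABCA2, ABCA5 and ABCD4. They also hold the 4 undetected genes that were above it on at least 1 (ABCB4, ABCB8, ABCB10 and ABCC5).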

How the data were processed

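HEK293 RNA from 4 separately cultured plates was hybridised by the authors to 60-mer single-colour arrays, scanned in GenePix and extracted in NimbleScan. The deposited values are log2 probe intensities, which ran from 5.14 to 15.99. RMA is named in the submitters' processing notes without a role. Sorted values agreed within 0.01 at 99.97% of ranks for replicates 1 and 2, 99.99% for replicates 3 and 4, and at most 1.25% between these pairs, so the arrays carry 2 value distributions. What separates the pairs is not given in the sources used here.

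From these values, the linear probe values of a target were averaged and logged, targets of a gene were averaged, and the mean plus 2 SD of the study's control genes was subtracted on each array. Of the 11 controls, PYY2 was not matched. RefSeq named 19125 of 24000 targets, and 4875 stayed unnamed. Distances were tested against 0 with limma 3.58 in R 4.3, one-sided, with Benjamini-Hochberg adjustment over 17217 genes at 0.05, after the script was tested on simulated data. limma estimated an infinite prior, so every gene had the same SE of 0.35. A sign-flip test of 4 arrays cannot go below 0.0625. The number of arrays limits the precision.

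Values on every array were to be given for the 10 largest distances among genes above the baseline on all arrays, for genes within 1 SD of it whose call moved, and for genes with targets on different sides. ABCA1, ABCA3, ABCC1, ABCD4, ABCF2-H2BK1 and ABCG2 were added after their values were seen. The genes, lists and letter patterns were chosen with earlier results of these data known. Alternatives covered the controls, the height of the baseline, the probe and target summaries, joint normalization, a filter on low values, limma's variance model, and left-out arrays or pairs. Protein sequences were not used here. Values of 2 ABC genes are counted but not reported here.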

Additional observations from a re-analysis of the deposited data

Results flagged for a closer look

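Among 46 ABC genes, 2 distances and 3 levels had 1 array farther from the rest than Dixon's critical value for 4 arrays allows, and chance flags about 1 in 20 such groups. For ABCA3 the distance on replicate 3 was 0.75, and for ABCC10 the distance on replicate 1 was 3.31. In level, ABCB6 was at 12.55 on replicate 4, ABCD3 at 13.46 on replicate 2 and ABCF1 at 13.97 on replicate 3. All 5 genes were above the baseline on every array.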

How the results depend on the processing

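Of the recomputed counts and medians over the ABC genes and over all partner lists together, 86 stayed within 1.5 times or the spread between replicates and 22 did not, and the cause was not tested. Without AFG2A and SPATA13 as controls, 26 ABC genes were detected, 23 were above the baseline on all arrays, 23 passed limma, the median distance was 0.91 and 5 genes with few CpG were detected. With olfactory receptor genes as controls these were 25, 23, 23, 0.67 and 4, and with the median plus 2 scaled MAD 22 were above on all arrays, 23 passed, the median was 0.29 and 3 had few CpG. At 1 SD, 21 were above on all arrays, 20 passed limma, the median was -0.10 and 3 detected genes had such a ratio. At 3 SD, 7 were above on all arrays, 7 passed and the median was -2.73, and with the median probe the median was -2.14. Of single partner lists, detected genes of K-ATP channel pores and partners went from 0 to 2 without AFG2A and SPATA13. They came to 2 with olfactory receptor genes and 1 with the MAD. Detected SLC transporters of drugs and bile acids went from 3 to 5 without AFG2A and SPATA13. At 3 SD, cholesterol efflux partners went from 9 to 4 and peroxisome genes from 16 to 10. A changed baseline moves every named gene, and the shares of all named genes under these settings are not given here.

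Of the recomputed distances of single genes, 670 kept their side and their limma call. On an unchanged side, 10 lost the call and 8 gained it. The 8 were ABCA2 and ABCA5 without AFG2A and SPATA13 (2.70 and 2.56), with olfactory receptor genes, with the MAD and at 1 SD. Another 47 changed side. Without AFG2A and SPATA13, these were ABCA10 at 0.52, ABCA7 at 1.39, ABCB10 at 1.92, ABCB4 at 1.95, ABCB8 at 1.82, ABCB9 at 1.52, ABCC12 at 0.035, ABCC2 at 1.30, ABCC5 at 2.21 and ABCG2 at 0.30. With olfactory receptor genes, they were ABCA10 at 0.28, ABCA7 at 1.14, ABCB10 at 1.68, ABCB4 at 1.71, ABCB8 at 1.58, ABCB9 at 1.27, ABCC2 at 1.06, ABCC5 at 1.97 and ABCG2 at 0.061. With the MAD, ABCA7 was at 0.77, ABCB10 at 1.30, ABCB4 at 1.33, ABCB8 at 1.20, ABCB9 at 0.89, ABCC2 at 0.68 and ABCC5 at 1.59. At 1 SD, ABCA7 was at 0.38, ABCB10 at 0.91, ABCB4 at 0.94, ABCB8 at 0.81, ABCB9 at 0.51, ABCC2 at 0.29 and ABCC5 at 1.20. At 3 SD, ABCA2 was at -0.94, ABCA5 at -1.08 and ABCD4 at -0.55, and ABCA3, ABCB1, ABCB6, ABCC1 and ABCF2 no longer passed limma. ABCC5 was at 1.12 with its highest target and 0.12 with mean log2 probes, where ABCA5 was at -0.85, and ABCA5 was at -2.25 with the median probe. Replicates 1 and 2 alone gave ABCB10 at 0.35, ABCB4 at 0.14 and ABCC5 at 0.28, and replicates 3 and 4 alone gave ABCA5 at -0.35. Leaving out 1 array at a time, ABCA5 ranged from -0.053 (without replicate 1) to 0.46, ABCB10 from -0.66 to 0.10 (without replicate 3) and ABCC5 from -0.35 to 0.045 (without replicate 3). Counting each RefSeq accession as its own unit, chosen after seeing the data, gave 18 detected. No paired analysis was possible because the design holds 1 group.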
